A study of Homo sapiens with 6 samples.

Results

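The BBSome and the chaperonin-like proteins that help to build it were followed in A549 cells, an established human lung adenocarcinoma line, after knockdown of the RNA helicase DDX17. The list held 10 genes. It comprised 8 BBSome subunits (BBIP1, BBS1, BBS2, BBS4, BBS5, BBS7, BBS9 and TTC8) and the chaperonins BBS10 and MKKS. It was drawn up by complex membership and because BBIP1 was strongly lower in the knockdown cells, so the difference between knockdown and control of these genes is given as a description without a p-value. Where members are said to be called, this is a count of how many passed a limit in the fit across all genes, set beside the share of all genes that did, and is not a test of the list. BBS1 was not analysed here. The other 9 genes were present among the 29476 genes of the count table, and all 9 were among the 15615 genes that passed the low-count filter.

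A pair of groups was compared. Both were A549 cells transfected with the lipid reagent Lipofectamine, 3 cultures with a nontargeting siRNA (siCtrl) and 3 with a single siRNA against DDX17 (siDDX17), and 1 library of polyadenylated RNA was made per culture with a stranded kit. The sample labels call the controls a control plasmid, whereas the methods describe a control siRNA. The authors described these as biological replicates, and each arm rested on 1 siRNA and 1 cell line. The methods put the harvest for RT-qPCR at 48 h after transfection and give no harvest time for the sequenced cultures.

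The libraries held 30658136 to 39182371 counted reads each. DDX17 itself was at 177, 184 and 206 CPM (read counts relative to the library size, which was scaled by the trimmed mean of M-values, TMM) in siCtrl and at 32.1, 30.8 and 30.4 CPM in siDDX17, so the groups were far apart. Its paralog DDX5 was at 403 ± 20.1 CPM in the control and 373 ± 16.03 CPM in the knockdown libraries (SD, n = 3), with a log2 fold change of -0.11 that became 0.014 when libraries were scaled by size only and was called at -0.16 without siCtrl 1. Epithelial keratins were abundant, with KRT8 between 1189 and 1371 FPKM (the authors' fragments per length and library size), and 5 of 6 epithelial markers were above 1 FPKM in every library. The epithelial sum was 3823 to 4119 FPKM in siCtrl and 3315 to 3490 FPKM in siDDX17, without overlap, and a part of this in the results was not tested. The 4 alveolar markers measured were all below 1 FPKM, with sums of 0.5 to 0.59 in siCtrl and 0.76 to 1.14 in siDDX17. The leukocyte gene PTPRC was at most 0.01 FPKM, but the leukocyte sum, nearly all CD14, was 10.9 to 14.4 in siCtrl and 15.8 to 16.2 in siDDX17, and a part of this in the results was not tested. The sums of the 3 endothelial and 4 fibroblast markers were at most 0.06 and 0.1 FPKM.

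The BBSome is a coat-like protein complex that carries membrane receptors out of and along the primary cilium, the antenna-like projection of many cells, and it rides on the intraflagellar transport trains. The small GTPase ARL6 recruits it to membranes. Its assembly needs the chaperonin-like proteins MKKS, BBS10 and BBS12 together with the CCT chaperonin, and mutations of these genes cause Bardet-Biedl syndrome. BBIP1 is the smallest subunit and is needed for assembly of the complex. Whether the cultures bore cilia was not measured.

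The DDX17 siRNA and the 3′ untranslated regions (3′ UTRs) of the 9 genes are shown first, because BBIP1 holds short matches to the siRNAs. The siRNA site in DDX17 lies on GRCh38 at chr22:38492080-38492098, minus strand, in exon 11 of the 13 exons of DDX17-203 and within the coding sequence. The capitals mark the bases that pair with bases 2 to 8 of the antisense strand of the siRNA, the seed through which siRNAs can also bind other mRNAs. The same 7 bases, TATTGCT, occurred once in the 3′ UTR of BBIP1 (chr10:110900068-110900097, minus strand) and once in that of MKKS (chr20:10404798-10404827, minus strand). They were absent from the canonical 3′ UTRs of the other 7 genes. All windows are read 5′ to 3′ on the strand of the gene.
DDX17, coding sequence, siRNA site: gcacccatcctTATTGCTa
BBIP1, base 274 of the 3′ UTR: ttcaccattccTATTGCTatcttttataga
MKKS, base 431 of the 3′ UTR: cattcagtataTATTGCTcaatcaaaagaa

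Among the 12986 tested genes with a canonical 3′ UTR of at least 30 bases, 14.5% held TATTGCT. The BBIP1 window resembled the siRNA site beyond the seed. It was identical to the 19-base site at 13 bases, 6 of them outside the 7mer, and these 6 include the base after the 7mer. Of the 2259 TATTGCT sites in the 3′ UTRs of tested genes, 3.14% were identical at as many bases or more, and 23.2% shared the base after the 7mer. The MKKS window was identical at 9 of 19 bases, which 80.3% of the sites reached. ATGGGTG, which the sense strand of the DDX17 siRNA would pair with, was in none of the 9 canonical 3′ UTRs and in 10.5% of those of the tested genes.

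A pair of further 7mers lay in the 3′ UTR of BBIP1, of 1630 bases, and in no other canonical 3′ UTR of the 9 genes. TGTCACG, the match to the antisense strand of the control siRNA, was held by 3.07% of the genes. GTGCTGA, held by 12.9%, matches neither siRNA seed and had been picked earlier by ranking 7mers on these same libraries, so its presence in a lowered gene is not independent of the counts. TCGGAGA, for the other strand of that siRNA, was absent from all 9 and held by 2.13% of the genes. When the 3′ UTRs of all coding transcripts were joined, 1 GTGCTGA was added in BBS2 and the other counts stayed. A part of these matches in any difference between the groups was not tested.
BBIP1, base 482 of the 3′ UTR, control siRNA match: tttatgtgccaTGTCACGtttaatgctatc
BBIP1, base 74 of the 3′ UTR: tatgcttctgtGTGCTGAaagtagtatgtg

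BBIP1 (ENSG00000214413.7) was the only member whose log2 fold change passed 1 in size. The gene spans chr10:110898730-110919201 on the minus strand, and its canonical transcript has 4 exons and 92 codons. Its reads numbered 834, 734 and 878 in siCtrl 1, 2 and 3 and 222, 187 and 248 in siDDX17 1, 2 and 3. After scaling these were 24.6, 25.7 and 23.4 CPM against 5.76, 5.13 and 6.44 CPM. Every knockdown library was therefore far below every control library, while the libraries within each group lay close together. The log2 fold change was -2.09 (standard error 0.0936), a level 76.5% lower in siDDX17. In the order of log2 fold changes from the lowest, BBIP1 was gene 30 of 15615, and gene 6 of the 8975 whose average log2 CPM was 3 or more. Omitting any 1 library gave values from -2.17 to -2.01. The value nearest to 0 in any setting was -1.61, on the log2(FPKM + 1) scale.

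The genes around BBIP1 showed no difference of that size. SHOC2, a scaffold of RAS signalling, is transcribed in the opposite direction and starts 165 bases from the start of BBIP1. It was at 20.8, 16.2 and 14.7 CPM in siCtrl and 15.96, 13.3 and 15.6 CPM in siDDX17, and these ranges overlapped. PDCD4, a translation inhibitor on the plus strand, overlaps the 3′ end of BBIP1 by 1277 bases. It was at 65.3, 56.4 and 56.5 CPM against 64.5, 63.8 and 63.2 CPM, again with overlapping groups. PDCD4-AS1, a noncoding RNA at the far end of PDCD4, was at 3.5 to 4.51 CPM in siCtrl and 4.54 to 5.27 CPM in siDDX17. The log2 fold changes were -0.20 (standard error 0.119) for SHOC2, 0.10 (0.0654) for PDCD4 and 0.27 (0.133) for PDCD4-AS1. None passed an adjusted p of 0.05, with values of 0.177, 0.211 and 0.115 by the quasi-likelihood test of edgeR, Benjamini-Hochberg adjusted. The value for SHOC2 depended on single controls. It was -0.050 without siCtrl 1 (adjusted p = 0.66 by the same edgeR test) and passed without siCtrl 3 at -0.31 (adjusted p = 0.0337 by that edgeR test), while the size-only and both FPKM scales gave -0.083, -0.054 and -0.064. PDCD4 passed without siCtrl 1 (log2 fold change 0.17, adjusted p = 0.00951). With libraries scaled by size only and on both FPKM scales, PDCD4 and PDCD4-AS1 passed as higher, by size only with log2 fold changes of 0.22 and 0.39. The authors' text does not say whether the strand was used in counting, so reads from the part shared by BBIP1 and PDCD4 cannot be assigned with certainty. The TATTGCT and GTGCTGA windows lie outside that shared part and the TGTCACG window lies within it.

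**Figure D1:**
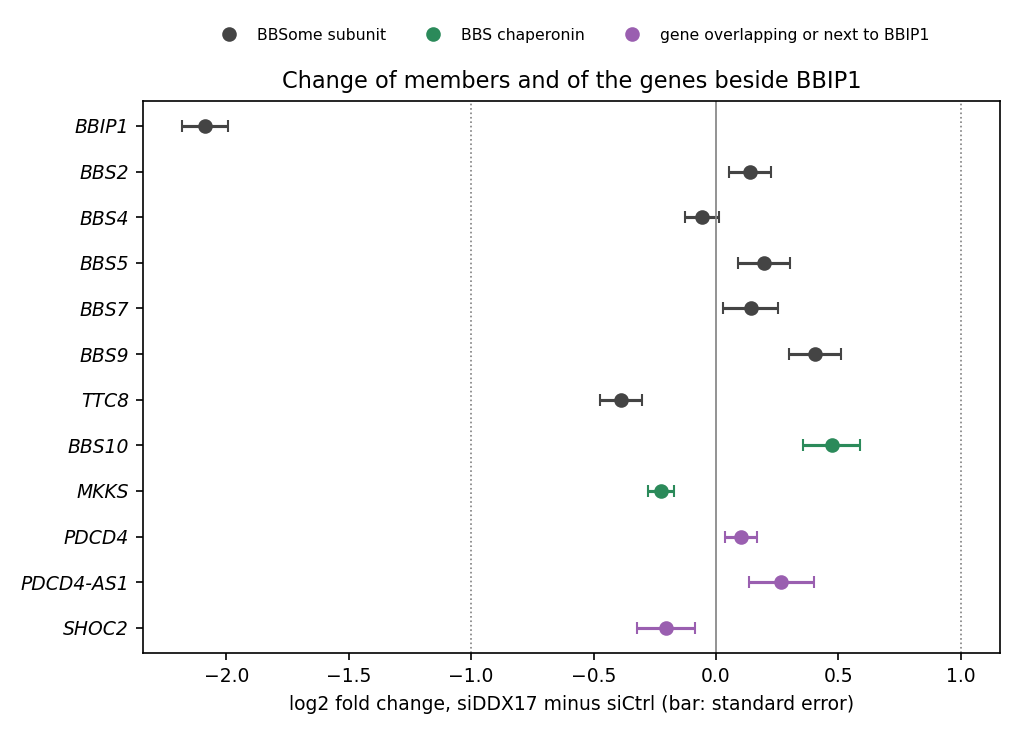
Log2 fold change (siDDX17 minus siCtrl, x axis) of the 9 BBSome and BBS chaperonin genes and of the 3 genes overlapping or next to BBIP1; points are estimates from 3 libraries per group, bars are standard errors and dotted lines mark the fold limit of 1 in either direction. BBIP1 at -2.09 stands apart from all others, which lie between -0.39 and 0.47.

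The other members had differences of smaller size and of both signs. At an adjusted p under 0.05 in the fit across all genes, 2 of the 8 members other than BBIP1, whose low level had chosen the list, were called lower in siDDX17 (TTC8 and MKKS), 2 higher (BBS9 and BBS10) and 4 not. Over all tested genes this limit called 24.3% lower, 24.5% higher and 48.8% in either direction. With an absolute log2 fold change over 1 in addition, none of these 8 was called by the edgeR fit or by DESeq2. The edgeR fit called 2.92% of all genes lower, 4.65% higher and 7.57% in either direction, and DESeq2 called 428 genes lower and 655 higher. At the limits of the study's methods (p under 0.01 and a fold change over 1.5) none of the 8 was called either, and these limits called 8.03% of all genes lower, 11% higher and 19% in either direction. The median log2 fold change was 0.14 for the 9 members and 0.14 for the 8 without BBIP1, beside 0.0051 over all tested genes. Among the 8 members without BBIP1, the 3 libraries of each group did not overlap for 4 as higher and 3 as lower (87.5% in all). Of all genes 28.8% were higher without overlap, 27.7% lower and 56.5% either. With libraries scaled by size only, 4 members were called higher and 2 lower, BBIP1 among the latter, and of all genes 5230 higher and 2494 lower in place of 3819 and 3798.

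TTC8 and BBS4 are subunits built from tetratricopeptide repeats. TTC8 (chr14:88824153-88881078, plus strand) was at 24.0, 21.95 and 21.0 CPM in siCtrl and at 17.1, 15.4 and 18.6 CPM in siDDX17, with no overlap. Its log2 fold change was -0.39 (standard error 0.0864), a level 23.6% lower, and it ranged from -0.46 to -0.32 on omitting 1 library. The call was lost on the log2(FPKM + 1) scale at -0.20 and on the log2(FPKM + 0.1) scale at -0.26. BBS4, which binds the centriolar satellite protein PCM1 (BBS4 at chr15:72686179-72738475, plus strand), was at 19.6, 19.9 and 19.5 CPM in siCtrl and 19.5, 18.4 and 18.8 CPM in siDDX17. These values nearly touched, and the log2 fold change of -0.058 (standard error 0.0693) turned to 0.065 when libraries were scaled by size only.

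BBS2, BBS7 and BBS9 each carry a beta-propeller domain and form much of the body of the complex. BBS9 (chr7:33109557-33877180, plus strand) was at 5.11, 5.07 and 4.94 CPM in siCtrl and at 6.77, 6.23 and 7.01 CPM in siDDX17. It was higher in each knockdown library, with a log2 fold change of 0.41 (standard error 0.106), a level 32.5% higher, and it ranged from 0.37 to 0.45 on omitting 1 library. BBS2 (chr16:56465640-56582667, minus strand) was at 17.7, 17.1 and 14.6 CPM in siCtrl and 18.4, 17.8 and 18.2 CPM in siDDX17, so siCtrl 3 was low and the rest lay close together. BBS7 (chr4:121824329-121870487, minus strand) was at 4.93, 5.45 and 5.04 CPM in siCtrl and 5.24, 6.01 and 5.76 CPM in siDDX17, which overlapped. The log2 fold changes were 0.14 (standard error 0.0841) for BBS2 and 0.14 (standard error 0.113) for BBS7, and neither was called. For BBS2 the value was 0.055 without siCtrl 3. OGFOD1, a gene on the opposite strand that overlaps BBS2 by 13465 bases, had a log2 fold change of 0.0046 and was not called, and reads from the shared part cannot be assigned with certainty either.

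BBS5, a subunit with pleckstrin homology domains that bind membrane lipids (chr2:169479480-169506655, plus strand), was at 6.53, 8.39 and 8.09 CPM in siCtrl and at 8.77, 8.61 and 8.93 CPM in siDDX17. Here siCtrl 1 was the low library. The log2 fold change was 0.20 (standard error 0.107), was not called, and was 0.082 without siCtrl 1. BBS2 and BBS5 were called higher when libraries were scaled by size only, with 0.26 and 0.32, a setting that moved the median of all genes by 0.122, and on both FPKM scales.

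Of the chaperonins, which are thought to hold BBS7 and other subunits during assembly, MKKS was called lower and BBS10 higher. MKKS (chr20:10401009-10434222, minus strand), the most abundant member, was at 86.1, 85.5 and 83.5 CPM in siCtrl and at 73.8, 72.1 and 72.5 CPM in siDDX17, a difference that was small but larger than the spread within either group. Its log2 fold change was -0.22 (standard error 0.0523), a level 14.4% lower, and the call was lost at -0.10 when libraries were scaled by size only and on both FPKM scales. BBS10 (chr12:76344474-76348415, minus strand) was at 4.96, 4.51 and 4.59 CPM in siCtrl and at 6.82, 5.79 and 6.90 CPM in siDDX17. Its log2 fold change was 0.47 (standard error 0.116), a level 38.8% higher, and it was called in each edgeR, DESeq2 and limma setting run with an adjusted p, from 129 to 266 reads per library.

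**Figure D2:**
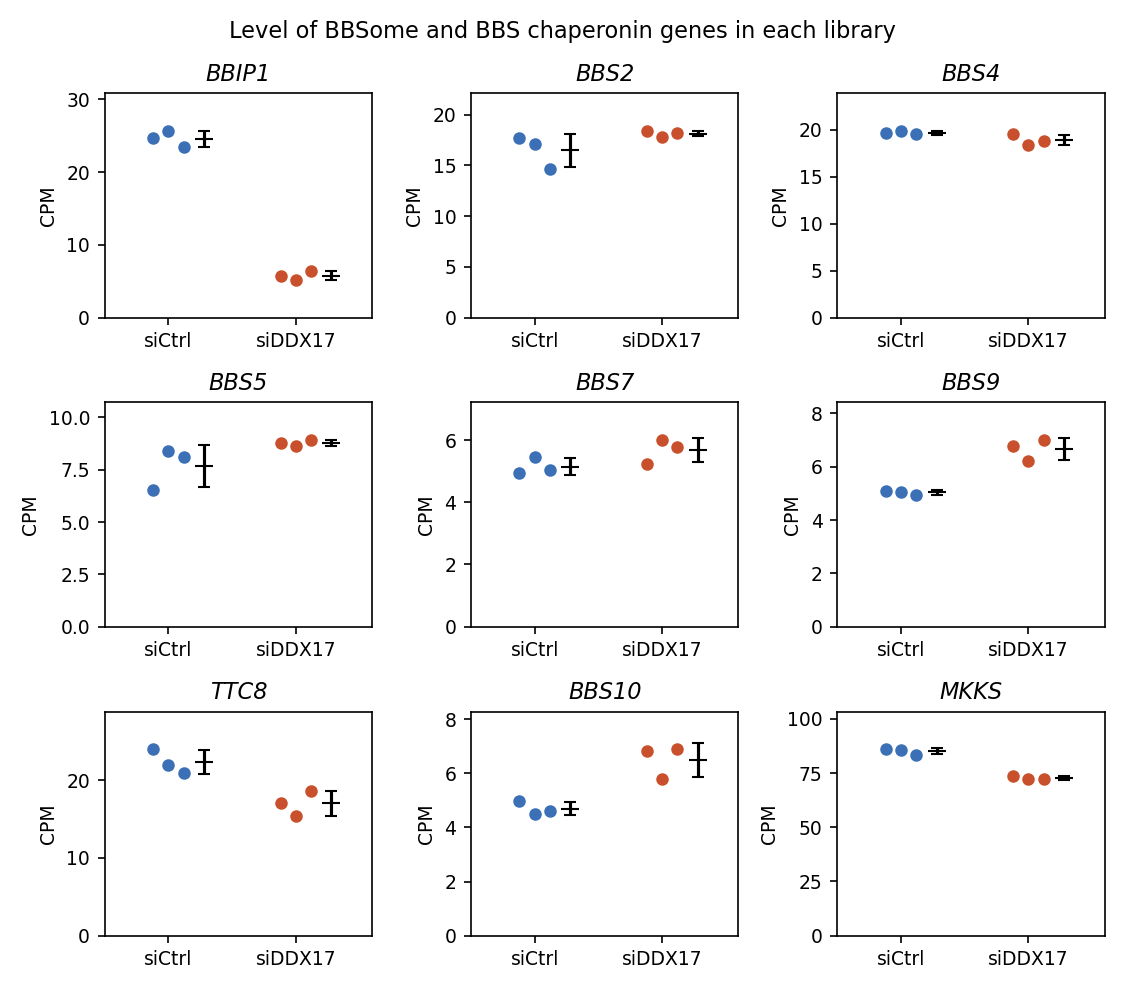
CPM of each of the 9 genes (y axis, from 0, scale differs by panel) in the 3 siCtrl (blue) and 3 siDDX17 (orange) libraries; the dash and bar beside each group are the mean and SD. BBIP1 is at 23.4 to 25.7 CPM in siCtrl and 5.13 to 6.44 CPM in siDDX17. The other genes have smaller fold differences, and of them only BBS7 has groups that overlap.

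Levels were then compared between the genes on the FPKM scale, which is per gene length. In siCtrl the medians ran from MKKS at 11.01 FPKM through BBIP1 at 9.69, BBS4 at 7.16, BBS2 at 5.1, TTC8 at 3.55, BBS5 at 2.13, BBS10 at 1.17 and BBS7 at 1.11 to BBS9 at 1.05 FPKM. Of the neighbours in this order, BBS10 and BBS7 had overlapping ranges, as shown by their values of 1.12 to 1.29 and 1.11 to 1.17 FPKM, and the lowest BBS7 value of 1.11 was just above the highest BBS9 value of 1.1. By these values BBIP1 was the most abundant of the 7 subunits measured in the control cells. Its canonical transcript has 2025 bases and the gene shares 1277 with PDCD4, so part of its reads cannot be assigned with certainty. In siDDX17 BBIP1 ranked below BBS4, BBS2, TTC8 and BBS5, at 2.44, 2.14 and 2.75 FPKM. Its range overlapped that of BBS5 (2.45 to 2.6 FPKM).

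The ratio of BBIP1 to the median of the other 6 subunits, both in FPKM, was 3.34, 3.39 and 3.23 in siCtrl 1, 2 and 3 and 0.868, 0.822 and 0.915 in siDDX17 1, 2 and 3. BBIP1 contributed 31.8% to 32.5% of the summed FPKM of the 7 subunits in siCtrl and 9.17% to 10.8% in siDDX17. That median of the other 6 was 2.81 to 2.92 FPKM in siCtrl and 2.61 to 3.01 FPKM in siDDX17, so the groups overlapped there. The limit on reads from the part shared with PDCD4 holds for the ratio and the share of BBIP1 as well. These are mRNA levels, and protein levels were not measured.

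**Figure D3:**
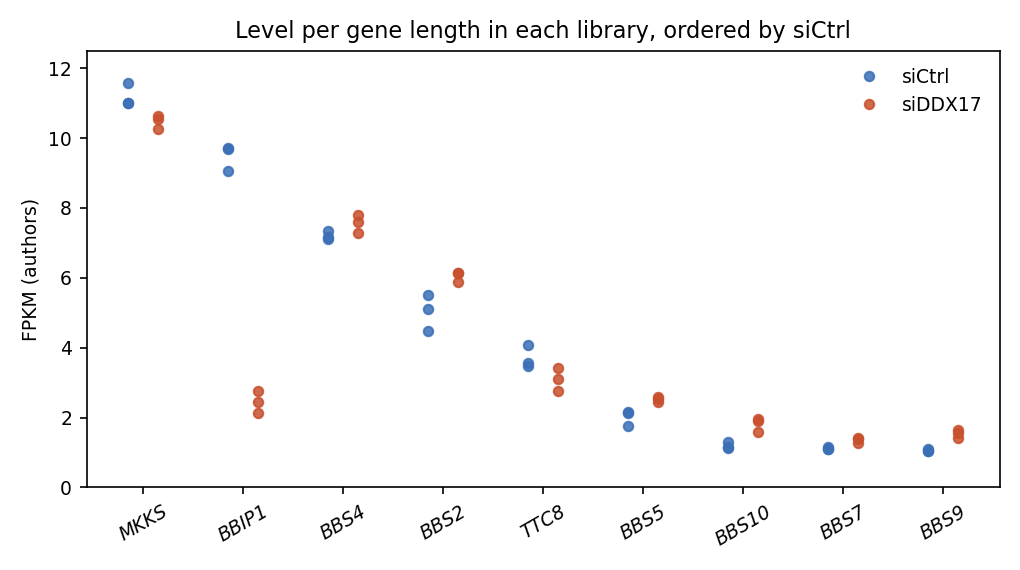
The authors' FPKM of the 9 genes (y axis, from 0) in each siCtrl (blue) and siDDX17 (orange) library, ordered by the siCtrl median. BBIP1 is at 9.07 to 9.73 FPKM in siCtrl and 2.14 to 2.75 FPKM in siDDX17, at the level of BBS5, and the order of the 4 subunits BBS4, BBS2, TTC8 and BBS5 is the same in both groups.

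The wider machinery around the BBSome was counted in 9 lists of genes, which together held 97 tested genes beside the members. Of these, 26 (26.8%) were higher and 19 (19.6%) lower in siDDX17 at an adjusted p under 0.05, beside 24.5% and 24.3% of all tested genes, and 52 were not called. With libraries scaled by size only, 42 were higher and 13 lower, beside 5230 and 2494 of all 15615 tested genes. The median log2 fold change was 0.055. In what follows, genes are said to have risen or fallen where they passed that limit. IFT27 was the only one past the fold limit with all libraries in the fit. It encodes a small GTPase of the transport trains that is needed for the BBSome to leave the cilium, and rose from 12.8, 14.7 and 13.6 CPM in siCtrl to 31.01, 35.96 and 31.9 CPM in siDDX17. This was a log2 fold change of 1.27 with a standard error of 0.0828 (adjusted p = 6.71e-08 by the edgeR test). Omitting 1 library also took genes described below past a size of 1, with GLI1 at up to 1.136, RAB3IP at -1.052 and CEP97 at -1.008.

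Among 15 other Bardet-Biedl and BBSome partner genes, 2 rose and 4 fell, with a median of -0.031. The number that rose was 5 with libraries scaled by size only and 4 on both FPKM scales. Of this list, IFT27, IFT172, MKS1, CEP290, PCM1 and CEP131 also stand in a later list and are counted there again. The total over the lists counts each gene once. RAB3IP, the exchange factor that activates RAB8A on vesicles bound for the cilium, fell from 11.7, 9.33 and 10.9 CPM to 6.23, 4.5 and 5.76 CPM (log2 fold change -0.95, adjusted p = 4.23e-05 by the edgeR test). RAB8A itself fell, from 78.5 ± 4.68 to 59.4 ± 1.602 CPM (SD, n = 3). ARL6 was at 4.7, 4.65 and 5.63 CPM in siCtrl and 4.26, 3.9 and 3.97 CPM in siDDX17 and was not called (log2 fold change -0.31, adjusted p = 0.0564 by the edgeR test). The third chaperonin-like gene, BBS12, was at 2.85 ± 0.0948 and 2.79 ± 0.188 CPM (SD, n = 3), and the regulator LZTFL1 at 8.09 ± 1.85 and 6.93 ± 0.119 CPM (SD, n = 3). Neither was called. PCM1, the partner of BBS4, rose from 29.5 ± 3.34 to 37.6 ± 4.13 CPM (SD, n = 3).

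Of the 8 CCT chaperonin genes, which fold newly made proteins in the cytosol, 2 rose, 1 fell and 5 were not called, with a median of -0.011. Without siCtrl 1, 3 fell, and 4 rose with libraries scaled by size only and on both FPKM scales. CCT5 rose with a log2 fold change of 0.59 and CCT7 fell with -0.34.

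Intraflagellar transport genes moved in both directions. In the IFT-A complex, 2 of 7 rose and 2 fell, with IFT140 at 0.61 and TULP3, which brings receptors into the cilium, at -0.34. In the IFT-B complex, 7 of 17 rose and 2 fell, and the median was 0.15. TRAF3IP1, IFT52 and TTC30A rose beside IFT27, with log2 fold changes of 0.95, 0.88 and 0.80, while IFT172 fell by 0.38 and IFT20 by 0.35. The number of IFT-B genes that rose was 4 without siCtrl 3 and 4 without siDDX17 3, and the fall of IFT172 was not called when libraries were scaled by size only (log2 fold change -0.25), on log2(FPKM + 1) (-0.16) or on log2(FPKM + 0.1) (-0.23). Of 9 motor genes, KIF3B of the kinesin that drives the trains outward rose by 0.47, and WDR34 (-0.61) and KIFAP3 (-0.36) fell. The number of motor genes that rose was 2 without siCtrl 1 and 2 without siCtrl 2, and it was 3 with libraries scaled by size only.

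At the base of the cilium, 4 of 17 transition zone genes rose and 3 fell, led by RPGRIP1L at 0.44 and MKS1 at -0.56. By DESeq2, 2 rose, and without siCtrl 2, siCtrl 3, siDDX17 1 or siDDX17 3 the number was also 2, while it was 10 with libraries scaled by size only. Of 13 genes of centriolar satellites and ciliogenesis control, 6 rose and 3 fell. CEP164, a protein of the appendages by which the centriole docks to the membrane, rose with a log2 fold change of 0.80. CEP97, which caps centrioles and holds back cilium growth, fell with -0.91. The number that rose was 3 without siCtrl 2, and the number that fell was 1 without siDDX17 2.

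Of 12 tested Hedgehog signalling genes, 4 rose and 1 fell. GLI1, a transcription factor and target of the pathway, was at 7.5, 6.05 and 4.48 CPM in siCtrl and at 11.8, 10.6 and 12.2 CPM in siDDX17 (log2 fold change 0.94, adjusted p = 0.000142 by the edgeR test). Of further targets, HHIP fell from 5.81 ± 0.625 to 3.64 ± 0.454 CPM and PTCH1 was at 1.85 ± 0.683 and 1.58 ± 0.129 CPM (SD, n = 3), the latter not called. Of 5 tested genes in the list of cilium transcription factors, all of the RFX family, 3 fell and 2 were not called. RFX7 was at -0.65, RFX5 at -0.52 and RFX2 at -0.42, and whether each of these acts on cilia was not tested. RFX3 was at 0.29 (standard error 0.168) and was not called, and 1 gene of the list rose without siCtrl 1.

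**Figure D4:**
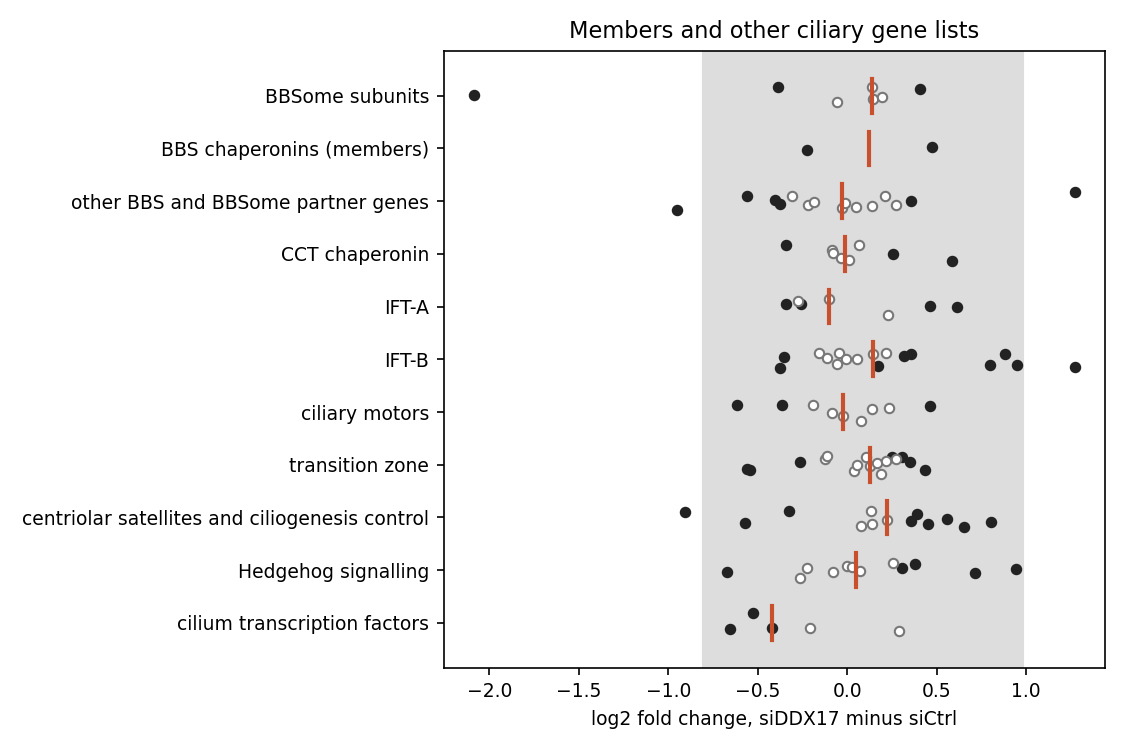
Log2 fold change (siDDX17 minus siCtrl, x axis) of each tested gene in the BBSome subunits, the chaperonins and the 9 other lists (y axis, jittered); filled points have an adjusted p under 0.05, open points do not, orange bars are list medians and the grey band spans the 5th to 95th percentile of all tested genes, -0.80 to 0.98. BBIP1 at -2.09 is the farthest point, and the list medians lie between -0.42 and 0.22.

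The 5 genes whose pattern over the 6 libraries was most like that of BBIP1 were IFRD2, SNX12, ARHGDIA, BNIP2 and MFN2. Likeness was the root mean square difference of log2 CPM after centring each gene on its siCtrl mean, over the 8975 genes named above, and it ran from 0.0935 for IFRD2 to 0.221 for MFN2. The fall in siDDX17, which had chosen BBIP1, enters this measure, so it picks genes with a similar fall. The log2 fold changes of the 5 were -2.02, -1.94, -1.87, -1.89 and -1.82, and their nearness to BBIP1 follows from that choice. None of the 5 belongs to the BBSome lists. Each holds at least 1 GTGCTGA in its 3′ UTR, as BBIP1 does, and BNIP2 holds 3 TATTGCT, which the other 4 lack. GTGCTGA was ranked, and the 5 genes were picked, on the same libraries, so this is given as a description.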

How the data were processed

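RNA-seq of polyadenylated RNA was measured in 6 A549 libraries, 3 siCtrl and 3 siDDX17. The authors trimmed 150-bp paired-end reads, mapped them to GRCh38 with TopHat2 with up to 4 mismatches and deposited raw counts of uniquely mapped reads per gene. The authors also deposited FPKM values, rounded to 2 decimals, which are scaled by length and library size but not by TMM. The counting program, annotation and use of strand are not given in the sources used here. The members and lists were chosen with earlier results of these data known.

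From the counts, edgeR 4.0.16 (R 4.3.3) was used with TMM, its expression filter and the quasi-likelihood test (standard error from log2 fold change and F). P-values were adjusted by Benjamini-Hochberg over 15615 genes. They set the difference between the groups against the spread between these cultures, and do not cover spread between siRNAs or cell lines. Totals of 30658136 to 39182371 reads per library give counting precision only. Simulated data with 200 changed genes, 50 at each fold, gave 49 recovered at a fold of 0.5, 47 at 1.5 and 50 at 2. The changed genes were taken from those with over 50 expected reads, and every gene was given the same dispersion. Recovery of genes with fewer reads or a wider spread was not simulated. Alternatives were other scalings and filters, DESeq2 1.42.0, limma 3.58.1 on log2(FPKM + 1) and log2(FPKM + 0.1) over the same genes, a replicate block, each library left out and the study's limits (p under 0.01, fold change over 1.5). Named genes were the members, DDX17, DDX5, genes overlapping the members or next to BBIP1, the genes past the fold limit or with the largest called change in each list, and the 5 most like BBIP1. Other genes of the lists were named as examples after their values were seen. GENCODE release 44 gave locations for 98.9% of the genes by identifier, and transcripts for the 3′ UTRs. Python 3.11.15 was used.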

Additional observations from a re-analysis of the deposited data

How the results depend on the processing

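The log2 fold change of BBIP1, the gene that chose the list, ran from -2.17 to -1.61 over the settings, and in no setting was another member past a size of 1. Leaving out each library in turn gave 2 members higher and 3 lower (BBIP1 counted), with a median over the 9 members between 0.0551 and 0.1585, the lowest being without siCtrl 3. Across the lists these fits gave 18 to 28 genes higher and 16 to 22 lower. When libraries were scaled by size only, 4 members were higher and 2 lower, with a median of 0.2608, and 42 genes of the lists were higher and 13 lower. Of all genes 5230 were then higher and 2494 lower, in place of 3819 and 3798, so the shift was not particular to the members or lists. BBS4 was at 0.0651 and DDX5 at 0.0138. On log2(FPKM + 1), which is scaled by library size as well, 4 members were higher and 1 lower, and 40 list genes were higher and 12 lower. Of all genes 5205 were higher and 2369 lower, and 160 higher and 89 lower passed the fold limit. On this scale BBS4 was at 0.0616 and DDX5 at 0.0186. On log2(FPKM + 0.1), 4 members were higher and 1 lower with a median of 0.2459, and 41 list genes were higher and 12 lower. Of all genes 5210 were higher and 2374 lower, and 613 higher and 210 lower passed the fold limit. There BBS4 was at 0.0689 and DDX5 at 0.0187. On log2(FPKM + 1), where the pseudocount shrinks low genes, called values were also nearer 0 by over 1.5 times for RAB3IP (-0.316), CEP97 (-0.298), MKS1 (-0.329), RFX7 (-0.274), HHIP (-0.162, and -0.441 on log2(FPKM + 0.1)), RPGRIP1L (0.265), CCT7 (-0.210) and TULP3 (-0.186), each still called. At the study's own limits 0 members were higher and 1, BBIP1, was lower, of 1713 and 1254 genes in all. OGFOD1, which overlaps BBS2, was at 0.0046 and turned to -0.0024 with RLE size factors, -0.0022 by DESeq2, -0.0472 without siCtrl 3 and -0.0137 without siDDX17 1, with up to 0.0253 on leaving out another library. The cause of these shifts was not tested, other than that scaling by size moved the median of all genes by 0.122.

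The replicate numbers are shared by both groups, and whether same-numbered cultures were handled together is not stated. Deviations of same-numbered libraries from their group means were correlated at 0.0070, 0.0407 and -0.0564. With so few libraries these values cannot show whether the cultures were paired, and the main fit did not pair them. With the replicate block 2 members were higher and 3 lower, BBIP1 was at -2.09, and 3743 genes were higher and 3738 lower. Among the members the standard errors were largest for BBS10 (0.116), BBS7 (0.113) and BBS5 (0.107).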
